A study of Mus musculus with 6 samples.

Results

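The genes described here are 8 transcription factors through which cells make and answer interferon: Irf1, Irf2, Irf3, Irf5, Irf7, Irf8, Irf9 and Stat2. They were taken by gene symbol from the 54532 genes of a mouse RNA sequencing table, where each symbol named 1 row. The 6 libraries came from immortalised cardiosphere-derived cells (iCDCs), a line of C57BL/6 mice grown from the heart ventricle and, per the methods of the study, from its epicardium. All libraries share the telomerase transgene (hTERT, brought in by lentivirus), the puromycin selection that came with it, and passage 30, so both groups stand for 1 cell line. The 3 control libraries are labelled as cells without induction, and the 3 induced libraries as cells given 10 µM 5-aza over 3 days and then IMDM with 2% serum over 4 weeks. The labels repeat this treatment text on the control samples, whose titles and descriptions set them apart. The methods of the study give another medium and a shorter time for that last step, and drug, serum and time in culture cannot be told apart in this comparison. The labels call the libraries separate samples without saying that they were separate cultures, so the p-values below measure the spread between these samples, which may be technical. The methods of the study speak of 2 biological replicates per condition, while its figure legend for this comparison gives n = 3. The table holds 3 libraries per group. Since these are bulk samples, fewer cells of a type and less RNA per cell cannot be told apart either.

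Interferon regulatory factors (IRFs) bind DNA repeats built around the letters GAAA. IRF3, IRF5 and IRF7 wait in the cytoplasm until sensors of foreign RNA or DNA have them phosphorylated, and they then switch on the genes of type I interferons. Secreted interferon acts through its receptor and JAK kinases to phosphorylate STAT proteins, among them STAT2, which joins IRF9 in a complex called ISGF3 that binds the interferon-stimulated response element (ISRE) of antiviral genes. IRF1 activates many genes of the interferon gamma response and of antigen presentation, IRF2 competes with it for the same sites, and IRF8 works mainly in blood cells. IRF7, STAT2 and IRF9 are themselves known targets of interferon, which makes the pathway self-amplifying.

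The promoters of these genes are shown first, searched for letters that match the sites of such factors. Binding itself was not measured. Windows of 300 bases, from 250 before to 50 after each RefSeq start on GRCm38.p6, were found for all 8 genes (11 windows) and for 10323 of the 14244 symbols tested for a change (72.5%, 13220 windows). They were searched on both strands for the repeat GAAANNGAAA, the core of an ISRE, and for the gamma-activated site TTCNNNGAA, which STAT dimers bind. The sequences below are the parts of these windows that lie upstream of both the RefSeq start and the annotated gene. They run 5′ to 3′ on the gene's strand, with matches to either motif in capitals. Stat2 and Irf2 are shown for the ISRE repeat, Irf1, Irf2 and Irf8 for the gamma-activated site, and Irf7 as the member with the largest change and no match.
Stat2, chr10:128270248-128270497, plus strand, 250 bases: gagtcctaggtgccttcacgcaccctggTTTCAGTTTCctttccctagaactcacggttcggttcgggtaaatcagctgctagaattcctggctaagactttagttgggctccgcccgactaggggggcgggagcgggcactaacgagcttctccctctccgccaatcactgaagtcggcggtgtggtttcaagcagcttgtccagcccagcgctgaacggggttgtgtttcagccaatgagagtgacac
Irf2, chr8:46739495-46739731, plus strand, 237 bases: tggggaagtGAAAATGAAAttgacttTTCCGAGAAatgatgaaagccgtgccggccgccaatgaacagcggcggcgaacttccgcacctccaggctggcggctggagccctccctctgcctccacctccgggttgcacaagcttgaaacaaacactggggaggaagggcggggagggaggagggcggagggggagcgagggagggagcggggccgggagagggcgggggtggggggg
Irf1, chr11:53769764-53770013, plus strand, 250 bases: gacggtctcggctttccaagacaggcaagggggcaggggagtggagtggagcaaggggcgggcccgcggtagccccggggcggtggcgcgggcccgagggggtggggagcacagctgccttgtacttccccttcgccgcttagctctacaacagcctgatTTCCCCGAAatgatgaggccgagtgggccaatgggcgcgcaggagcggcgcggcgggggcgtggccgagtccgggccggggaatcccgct
Irf8, chr8:120736108-120736357, plus strand, 250 bases: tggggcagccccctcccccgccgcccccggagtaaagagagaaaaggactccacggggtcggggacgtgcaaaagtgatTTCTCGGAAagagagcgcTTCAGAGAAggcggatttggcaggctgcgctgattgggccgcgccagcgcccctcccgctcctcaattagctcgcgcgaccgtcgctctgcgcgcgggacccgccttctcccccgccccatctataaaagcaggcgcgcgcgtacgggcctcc
Irf7, chr7:141266482-141266674, minus strand, 193 bases: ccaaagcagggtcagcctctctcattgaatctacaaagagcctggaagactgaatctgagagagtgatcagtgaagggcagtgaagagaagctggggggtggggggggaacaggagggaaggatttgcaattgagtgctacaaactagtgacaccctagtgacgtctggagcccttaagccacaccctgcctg

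The ISRE repeat was present in windows of 2 of the 8 genes, where 3.80% of all tested genes with a window held it. In Stat2 the match (TTTCAGTTTC, the repeat read on the opposite strand) began 222 bases before the start, at chr10:128270276-128270285. In Irf2 it read GAAAATGAAA and began 241 bases before the start, at chr8:46739504-46739513. The gamma-activated site was present in 3 of the 8 genes, where 8.31% of all tested genes with a window held it. Irf1 held TTCCCCGAA, 90 bases before its start at chr11:53769924-53769932. Irf2 held TTCCGAGAA, 224 bases before its start and close to its ISRE repeat. Irf8 held 2 such sites, TTCTCGGAA and TTCAGAGAA, which began 171 and 153 bases before the first of its 2 starts. No window of Irf3, Irf5, Irf7 or Irf9 matched either motif, which says only that these letters are not in these windows. Of 30 tested genes known as ISGF3 targets and with a window, 11 held the ISRE repeat and 6 the gamma-activated site. Most of these targets thus had no match to the ISRE repeat either.

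CpG content is given because the induction used an inhibitor of DNA methylation, a mark that in mammals sits on CpG dinucleotides. Methylation itself was not measured. Irf7 had 7 CpG dinucleotides in its window, an observed over expected ratio of 0.310, and 13.8% of the windows of tested genes had a lower one. The windows of Irf9 were poorer still or similar, with ratios of 0.0483 and 0.392, while the windows of Irf1 had ratios of 0.912 and 1.02 and that of Irf5 had 0.889. Stat2, Irf3 and Irf2 lay between these, at 0.834, 0.712 and 0.673, around the median of 0.744 over all windows of tested genes. The first window of Irf8 had a ratio of 1.03 and the second 0.357. The genes that were higher in induced cells thus included some with windows poor in CpG (Irf7, Irf9) and some with windows above the median (Irf5, Stat2).

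**Figure D1:**
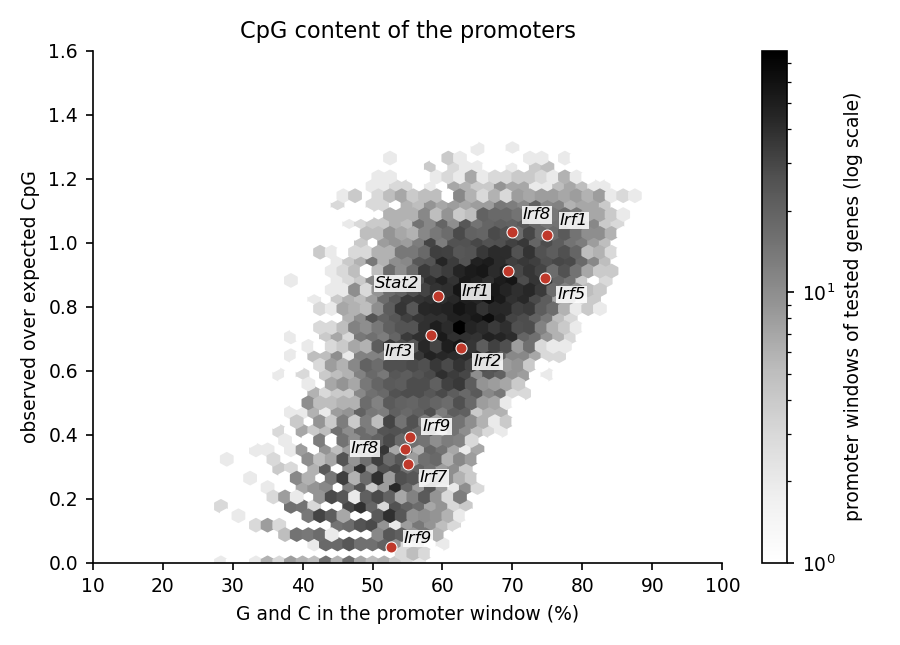
Each red point is 1 of the 11 promoter windows of the 8 genes, with its share of G and C (%) on the x axis and its ratio of observed to expected CpG on the y axis. Grey hexagons count the 13220 windows of tested genes on a log scale. The windows of Irf7 and Irf9 and the second window of Irf8 lie in the lower, CpG-poor part of the distribution. Those of Irf1 and Irf5 and the first window of Irf8 lie in its upper right.

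Reads were counted per gene, and 14246 genes had enough of them for a test. With edgeR (quasi-likelihood, Benjamini-Hochberg over those genes), 64.8% were called at an adjusted p of 0.05, 32.6% higher and 32.2% lower in induced cells, and the libraries of the groups did not overlap for 68.6%. Of the 8 factors, 7 were tested, and 4 of these were called higher (Irf7, Irf5, Stat2, Irf9), 1 was called lower (Irf1) and 2 were not called (Irf3, Irf2). The share of the 7 genes called in either direction was therefore near that of all genes. Total counts were 19041133 to 19823369 per library, which limits the precision of the lowest gene, Irf8, most. Levels are given as CPM, counts scaled to the size of each library by TMM, and, where genes are compared with each other, as FPKM, which also divides by gene length.

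**Figure D2:**
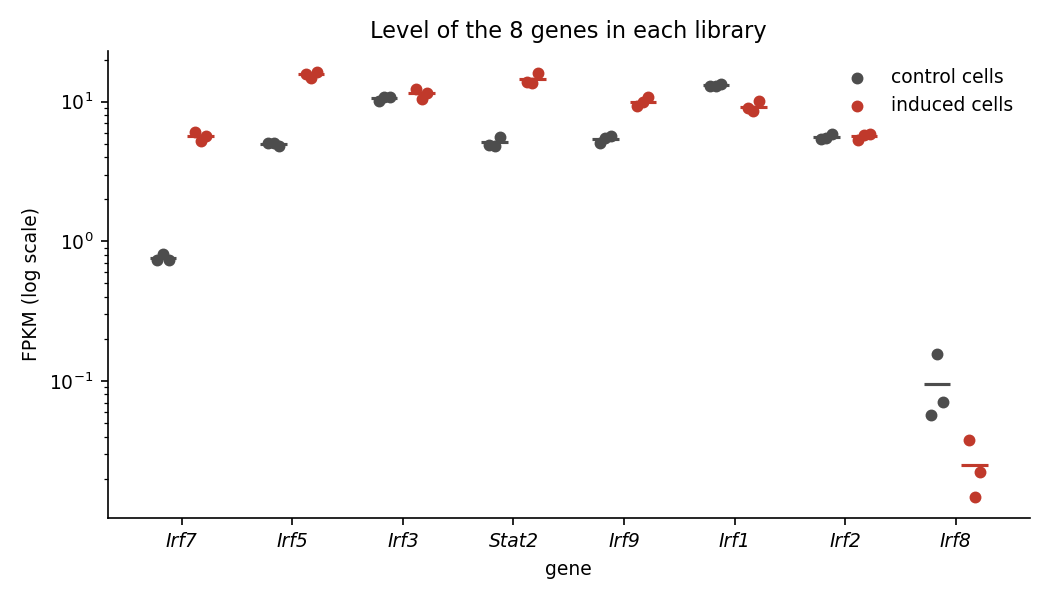
The level of each of the 8 genes in FPKM (log scale, y axis) is plotted for each library, control in grey and induced in red, with a line at the mean of 3. Irf7, Irf5, Stat2 and Irf9 lie higher in all induced libraries, Irf1 lower, and the points of Irf3 and of Irf2 overlap between the groups.

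Among the factors that act below the nucleic acid sensors, Irf7 and Irf5 were higher in induced cells and Irf3 was not called. Irf7 (ENSMUSG00000025498, chr7:141262706-141266481, minus strand), the factor that carries the later, large wave of interferon synthesis, had 55, 61 and 56 reads in the control libraries and 434, 374 and 409 in the induced libraries. All induced libraries lay several times above all control libraries, which were close together. Its level rose from 2.90 ± 0.181 to 21.4 ± 1.70 CPM (SD, n = 3), a log2 fold change of 2.88 (SE 0.12, 95% interval 2.63 to 3.13, edgeR adjusted p 2.45e-13). A call higher with a change of at least 2-fold was made for 9.29% of all tested genes. Of the 954 tested genes that the deposited table annotates as transcription factors, 24.2% were called higher, and Irf7 was 11th by fold change.

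Irf5 (ENSMUSG00000029771, chr6:29526625-29541871, plus strand), which is activated below Toll-like receptors and is best known from macrophages and B cells, had 294, 293 and 283 reads in control and 862, 823 and 904 in induced libraries. The groups were far apart and the libraries within each were close together. The level rose from 14.7 ± 0.427 to 45.5 ± 2.06 CPM (SD, n = 3), a log2 fold change of 1.63 (SE 0.07, edgeR adjusted p 5.00e-13). Tnpo3, the import receptor gene on the opposite strand, overlaps 14.1% of the exon bases of Irf5, and the strand setting of the counting is not given in the sources used here. Tnpo3 itself had a log2 fold change of 0.0098 (edgeR adjusted p 0.893).

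Irf3 (ENSMUSG00000003184, chr7:44997648-45002848, plus strand), the constitutive factor that starts interferon beta transcription, had 690, 735 and 749 reads in control and 798, 688 and 757 in induced libraries. In CPM, induced replicate 2 lay within the range of the control libraries and the other induced libraries lay above it, so the groups overlapped. The levels were 36.6 ± 1.46 and 39.4 ± 3.12 CPM (SD, n = 3), with a log2 difference of 0.11 (SE 0.07, 95% interval -0.037 to 0.25, edgeR adjusted p 0.182). Without induced replicate 2 the difference was 0.17 and was called (edgeR adjusted p 0.0169), so this result rests on that library. Bcl2l12, on the opposite strand, overlaps 2.56% of the exon bases of Irf3 and had a log2 fold change of -0.58.

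Both subunits that distinguish ISGF3 from other STAT complexes rose in induced cells. Stat2 (ENSMUSG00000040033, chr10:128270559-128292849, plus strand), whose promoter holds the ISRE repeat shown above, had 575, 567 and 667 reads in control and 1540, 1524 and 1800 in induced libraries. The third library of each group was the highest and the groups did not overlap. Its level rose from 30.5 ± 2.54 to 85.4 ± 7.74 CPM (SD, n = 3), a log2 fold change of 1.49 (SE 0.07, edgeR adjusted p 2.36e-12). Irf9 (ENSMUSG00000002325, chr14:55603571-55610030, plus strand), which gives ISGF3 its DNA contacts, had 546, 586 and 619 reads in control and 942, 1021 and 1107 in induced libraries. All induced libraries again lay above all control libraries. It rose from 29.5 ± 1.70 to 53.9 ± 3.98 CPM (SD, n = 3), a log2 fold change of 0.87 (SE 0.07, edgeR adjusted p 1.94e-09). Rnf31, its neighbour on the same strand, shares 2.28% of its exon bases and was not called (0.14, edgeR adjusted p 0.0811).

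In FPKM, the ratio of Irf9 to Stat2 was 1.07 ± 0.0613 in control and 0.696 ± 0.0360 in induced cells (SD, n = 3), a log2 difference of -0.62. The libraries of the groups did not overlap, and the exact two-sided permutation test gave p = 0.1, the smallest that 3 libraries against 3 allow (adjusted p 0.1 over 3 ratios). Which of Irf9 and Stat2 was the more abundant transcript in induced cells depended on the length used: per kilobase of the principal coding transcript the ratio was 1.73 in control and 1.13 in induced cells.

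Of the pair that competes for shared sites, Irf1 was lower in induced cells and Irf2 was not called. Irf1 (ENSMUSG00000018899, chr11:53770014-53778374, plus strand), the activator, had 1029, 1017 and 1064 reads in control and 675, 649 and 765 in induced libraries. It was the one tested member with every induced library below every control library. Its level fell from 52.4 ± 0.775 to 36.7 ± 3.06 CPM (SD, n = 3), a log2 fold change of -0.51 (SE 0.06, 95% interval -0.65 to -0.38, edgeR adjusted p 9.12e-07). Irf2 (ENSMUSG00000031627, chr8:46739732-46847458, plus strand), the antagonist, had 800, 811 and 871 reads in control and 742, 817 and 827 in induced libraries, and the groups overlapped. The levels were 41.8 ± 1.61 and 41.9 ± 2.16 CPM (SD, n = 3), with a log2 difference of 0.0029 (SE 0.06, 95% interval -0.12 to 0.13, edgeR adjusted p 0.970). The ratio of Irf1 to Irf2 in FPKM was 2.33 ± 0.0601 in control and 1.63 ± 0.133 in induced cells (SD, n = 3), and that of Irf7 to Irf3 was 0.0722 ± 0.00377 and 0.495 ± 0.00181. Both differed without overlap (exact two-sided permutation p = 0.1, the smallest possible here, adjusted p 0.1 over 3 ratios). Per kilobase of the principal coding transcript, the ratio of Irf1 to Irf2 was 1.47 in control and 1.02 in induced cells. That of Irf7 to Irf3 was 0.0839 and 0.575 on this scale.

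Irf8 (ENSMUSG00000041515, chr8:120736358-120756694, plus strand), which directs the formation of myeloid cells, was close to the limit of detection and did not pass the filter on low counts. It had 8, 22 and 10 reads in control and 5, 2 and 3 in induced libraries. The induced libraries were all lower, and 22 of the 40 control reads came from control replicate 2. Pooled, 40 and 10 reads gave a ratio of 0.261 (95% exact binomial interval 0.116 to 0.530, counting error only). With no filter, where 38% of 25705 genes were called, it had a log2 fold change of -1.90 (SE 0.60, edgeR adjusted p 0.00493). Without control replicate 2 this was -1.33 with an edgeR adjusted p of 0.163, and without induced replicate 3 it was -1.83 with 0.0545. Its relative Irf4 was read 0 times in the control and 3 times in the induced libraries, so no difference was detectable at this depth.

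Of 19 leukocyte markers 12 had any reads, and their summed level was 27.6 to 30.6 CPM in control and 54.4 to 62.5 CPM in induced libraries. Ptprc, Cd52, Tyrobp, Itgam, Adgre1, Cd3e and Flt3, which define blood cell types, had 0 reads in all 6 libraries. Of the 4 markers tested, Cd68 (3.89), Lyz2 (1.96) and Fcer1g were called higher and Csf1r was called lower (-1.05) on the log2 scale. Cd68, a lysosomal membrane protein, and Lyz2, lysozyme, are also read in other cells, and Fcer1g went from 2 reads over the control to 187 over the induced libraries, a ratio of 97.5 (95% exact interval 26.6 to 811). These values stand beside those of Irf5 and Irf8, the members best known from leukocytes. All 10 genes listed as markers of the cell line had reads, and 7 were called higher and 3 lower. Their sum was 1111 to 1121 CPM in control and 1965 to 2117 CPM in induced libraries, and most of the rise was that of Upk3b (254 ± 0.674 to 942 ± 62.9 CPM, SD, n = 3). Tbx18, Hand2 and Ly6a were the genes called lower (-0.33, -0.67 and -0.57). The list also holds Wt1 and Tcf21 of the epicardium (1.34 and 1.49, both called higher), which the study does not count among the markers of this line. Endothelial markers summed to 1.21 to 2.31 CPM over all libraries. Cardiomyocyte markers summed to 13.7 to 16.2 CPM in control and 59.3 to 62.9 CPM in induced cells, most of it Tnnt2. Of these 10 markers 2 were tested: Tnnt2 was called higher (2.15) and Tnni3 was not called (0.41, edgeR adjusted p 0.144). Myh6, Myh7, Myl2, Nkx2-5 and Pln had no more than 3 reads in any library. The other untested markers were Ryr2, Actn2 and Mybpc3. Ryr2 had 0, 0 and 1 reads in control and 9, 10 and 10 in induced libraries. Actn2 had 8 reads, all in induced replicate 2, and Mybpc3 had 2, 11 and 3 in control and 11, 2 and 5 in induced libraries.

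Per length, the order of the 8 genes differed between the groups. In control cells Irf1 stood first with 13.1 ± 0.219 FPKM, followed by Irf3 with 10.5 ± 0.419 FPKM (SD, n = 3). Irf2, Irf9, Stat2 and Irf5 came next, from 5.60 down to 5.00 FPKM, and neighbours among these 4 did not differ beyond their spread. Irf7 was well below them at 0.761 ± 0.0459 FPKM and Irf8 last at 0.0948 ± 0.0543 FPKM. In induced cells Irf5 (15.6 ± 0.730 FPKM) and Stat2 (14.4 ± 1.32 FPKM) stood first with overlapping ranges, then Irf3 (11.4 ± 0.921), Irf9 (10.0 ± 0.738) and Irf1 (9.22 ± 0.779), each overlapping the next. Irf2 (5.66 ± 0.287 FPKM) and Irf7 (5.66 ± 0.456 FPKM) had overlapping ranges on this scale. The deposited length takes in every annotated exon of a gene, which for Irf7 is 100% of its 3776 bases including introns that some transcripts keep, against 1916 bases in the principal coding transcript. Per kilobase of that transcript, a scale added after the data were seen, the ranks in control cells were those above, but there the ranges of Irf2, Irf9 and Stat2 did not overlap and those of Irf3 and Irf2 did. On that scale, in induced cells Irf9 stood first, followed by Irf5, Stat2 and Irf3, with ranges that overlapped between neighbours, and Irf2 (16.8 ± 0.864) and Irf7 (11.2 ± 0.886) did not overlap.

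The 7 IRF genes of the set were also compared as parts of their sum, which leaves out the other IRF genes. The summed FPKM was 40.5 ± 0.965 in control and 57.6 ± 2.70 in induced cells (SD, n = 3). The share of Irf1 in that sum was 32.3 ± 0.643% in control and 16.0 ± 0.658% in induced cells, and the share of Irf3 was 26.0 ± 0.472% and 19.8 ± 1.25%. Irf5 went from 12.4 ± 0.593% to 27.1 ± 0.0948%, the largest part on this scale, and Irf7 from 1.88 ± 0.110% to 9.82 ± 0.639%. Irf9 went from 13.4 ± 0.463% to 17.4 ± 1.13% and Irf2 from 13.8 ± 0.300% to 9.83 ± 0.682%. The libraries of the groups did not overlap for any of these 6 shares, which are given as a description. A share also moves when other genes do: Irf2 and Irf3 were not called, and their smaller shares stand beside a larger sum. Per length of the principal transcript, Irf9 was on average the largest part in induced cells with 20.5 ± 1.21%, followed by Irf5. That order is one of means, and Irf9 did not lie above Irf5 and Irf3 in every induced library.

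**Figure D3:**
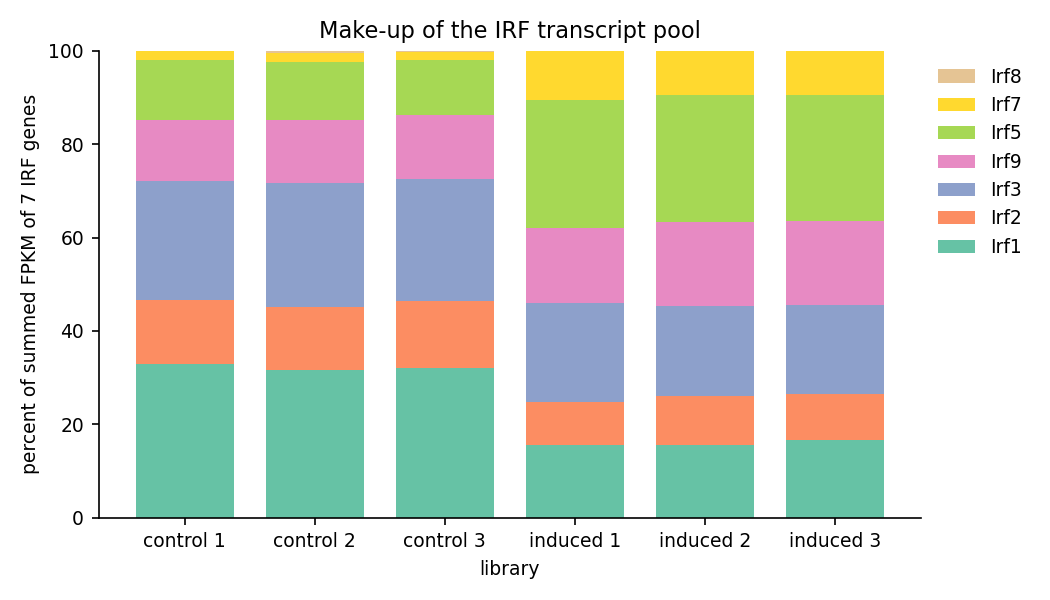
Each bar is 1 library, and its parts show the share (%) of each gene in the summed FPKM of the 7 IRF genes. Irf1 is the largest part in the 3 control libraries and Irf5 in the 3 induced libraries, on the scale of the deposited gene lengths, while Irf8 is too small to be seen.

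The genes around the factors were grouped by role, beside a median of -0.0070 on the log2 scale over all tested genes and the shares called over those genes, 32.6% higher and 32.2% lower. The ligands came first: 21 interferon genes, including Ifnb1, Ifng and the Ifna family, were in the table, none had enough reads to be tested, and together they had 3 reads in the control and 5 in the induced libraries. Ifnb1 had 2 of those reads, both in induced replicate 2. A difference in interferon transcripts was not detectable at this depth.

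Of the receptors and kinases, 4 of 10 tested genes were called higher and 3 lower, with a median of -0.039, near the shares of all tested genes. Both receptor chains for interferon gamma were higher, Ifngr2 by 0.53 and Ifngr1 by 0.56. Ifnar2, a chain of the type I receptor, was higher by 0.42. The other type I receptor chain, Ifnar1, had a log2 difference of -0.0096 (edgeR adjusted p 0.889), and Tyk2, the kinase bound to it, was called lower (-0.33, edgeR adjusted p 7.31e-05). Jak2, a kinase bound to the interferon gamma receptor, fell by 1.21 (edgeR adjusted p 1.19e-11). Of the sensors, adaptors and kinases upstream of IRF3 and IRF7, 10 of 21 tested genes were called higher and 6 lower, with a median of 0.13, where 64.8% of all tested genes were called in either direction. The RNA sensors Ddx58 (RIG-I), Ifih1 (MDA5) and Dhx58 (LGP2) rose by 0.89, 1.18 and 2.02. Tmem173 (STING), the adaptor of DNA sensing, fell by 0.86 from 1395, 1433 and 1470 reads to 809, 717 and 745 (edgeR adjusted p 3.15e-10).

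Of the negative regulators, 10 of 19 tested genes were called lower and 4 higher, with a median of -0.16. Socs2 and Socs3, inhibitors of JAK signalling, fell by 1.64 and 1.12, and Irf2bpl, a relative of the IRF2-binding proteins, fell by 0.57. Usp18, which removes ISG15 from proteins, blocks the type I receptor and is itself a target of interferon, had 11, 4 and 13 reads in control and 277, 266 and 376 in induced libraries. It rose by 5.08 (SE 0.24, edgeR adjusted p 1.60e-12). Of 10 tested genes listed as DNA-binding partners of IRFs, 6 were called lower and 0 higher by edgeR, with a median of -0.17. The tested genes include Crebbp and Ep300, which are not annotated as transcription factors. The number called lower was 5 with DESeq2, 4 at an adjusted p of 0.01, and 4 to 8 with each library left out in turn. No gene of that list was called higher by DESeq2 or limma either, and 0 were higher at an unadjusted edgeR p under 0.05. Batf3, the partner of IRF4 and IRF8 in dendritic cells, had 54, 52 and 51 reads in control and 3, 5 and 1 in induced libraries, a log2 fold change of -4.01 (SE 0.39, edgeR adjusted p 5.27e-08). Tcf3, Jun and Spib fell by 1.10, 0.40 and 0.84.

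Known targets of ISGF3 were higher almost throughout, 37 of 39 tested genes with a median of 2.21, and 0 were called lower by edgeR, DESeq2 or limma or at an unadjusted edgeR p under 0.05. The filter keeps a gene with enough reads in 1 group alone. Some targets were thus tested only through the induced libraries, such as Ifi44 (0, 1 and 2 control reads, 148, 125 and 167 induced reads). The count and the median include such genes, here and in the other lists. With library totals alone for scaling, 1 gene, Isg20, was called lower. Ifit3, Ifit1, Tor3a and Bst2 rose by 6.27, 5.85, 1.65 and 1.84, and Oas3, which makes the activator of RNase L, went from 0 reads to 32, 23 and 49, at least 36.1-fold higher against a limit of 3 counts over the control group. Ifit3 has a near-identical neighbour, Ifit3b, and their reads may have been shared out between them. The 2 genes not called were Isg20 (-0.13) and Uba7 (0.12). Of the targets assigned to IRF1 and interferon gamma, 17 of 22 tested genes were higher and 3 lower, with a median of 1.28. B2m, the light chain of MHC class I, rose by 1.73, Tapbp, which loads peptides on it, by 1.06, and Gbp3, a guanylate-binding protein, by 3.41. Vcam1, an adhesion molecule, fell by 1.02. The other 2 genes called lower, named here after their values were seen, were Psmb10 (-0.39) and Psme1 (-0.16), subunits of the immunoproteasome and of its activator. Many genes of this second list respond to ISGF3 as well, so the lists are not readouts of separate factors.

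**Figure D4:**
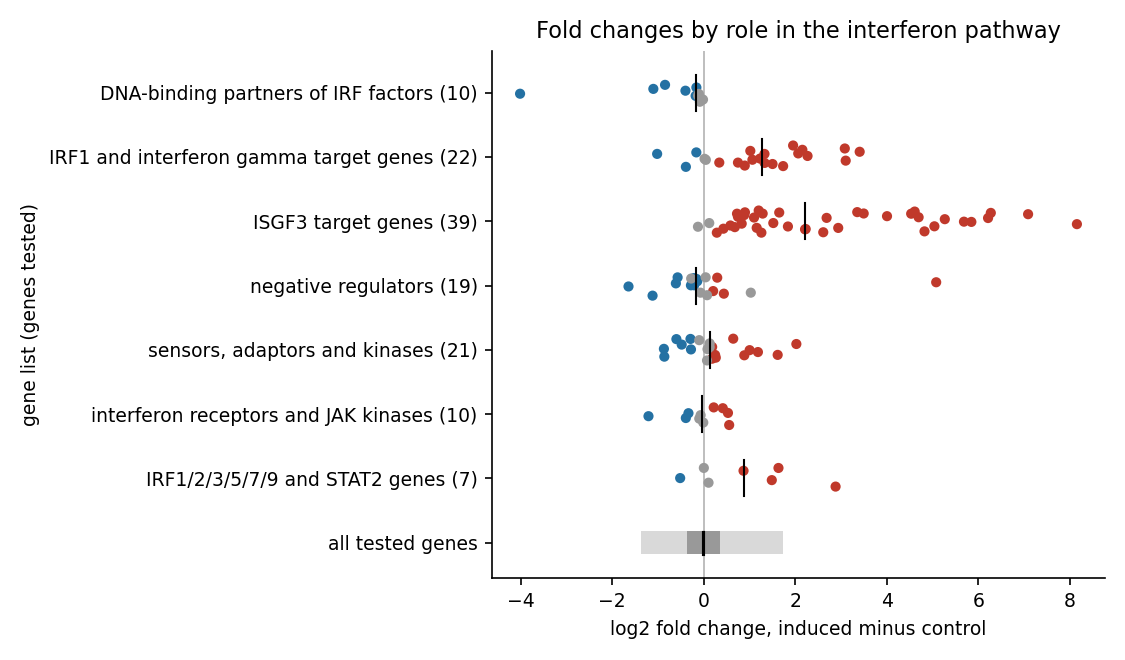
Log2 fold changes (x axis, induced minus control) of the tested genes of each list are shown as points, red where called higher, blue where called lower and grey where not called, with a black line at the median and the number tested in brackets. The bars for all tested genes span the 5th to 95th (light) and 25th to 75th (dark) percentiles; of the lists drawn, the ISGF3 targets (median 2.21) lie furthest to the right, and the DNA-binding partners (median -0.17) hold no gene called higher.

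Among the other STAT genes, Stat5b and Stat6 were called higher (0.29 for both) and Stat5a and Stat3 lower (-0.30 and -0.21), each by less than 2-fold, and Stat4 had 0 reads.

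Relative to the mean of the control libraries, Irf7 was higher by 2.95, 2.72 and 2.85 on the log2 scale in induced replicates 1, 2 and 3, and Stat2 by 1.43, 1.40 and 1.63. The median over the 39 tested ISGF3 targets was higher by 1.94, 2.00 and 2.26 in the same libraries, and 33 of the 39 targets had their highest level in replicate 3. Among the induced libraries, Stat2, Irf9 and Irf5 were also highest in replicate 3, as were Irf2 and Irf1, which was lower than in control cells. Irf7, Irf3 and Irf8 were highest in replicate 1. With 3 libraries these orders are descriptions. The share of all tested genes that were highest in replicate 3 is not given here, so the 33 of 39 has no background beside it.

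**Figure D5:**
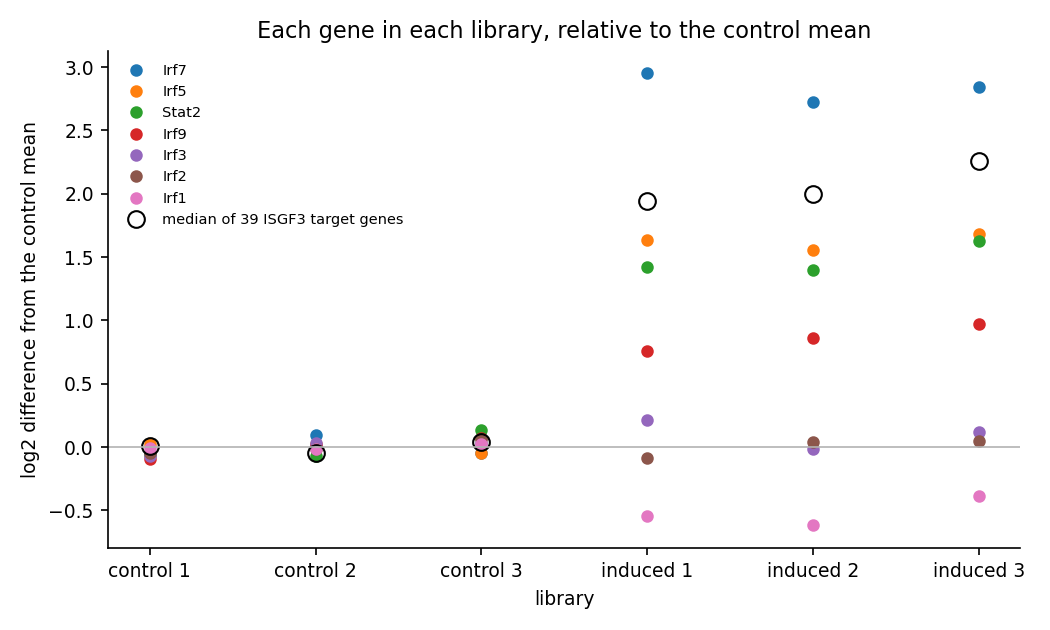
For each library on the x axis, the log2 difference from the control mean (y axis) is given for 7 of the 8 factors as filled points, and the median of the 39 tested ISGF3 targets as an open circle. The control libraries lie around 0, and in the induced libraries Irf7 lies above the target median while Stat2, Irf5 and Irf9 lie below it.

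The genes whose profiles over the 6 libraries were nearest to those of the members that rose more than 2-fold were named by the distance between log2 CPM values after subtracting each gene's control mean. For Irf5 these were Cd34 (distance 0.0565), Rnf130 (0.0772) and the ISGF3 target Tor3a (0.0993). For Stat2 they were Dpp7 (0.180), the ISGF3 target Samd9l (0.201) and Hpse (0.226). For Irf7 they were Prss12 (0.218), Spock2 (0.231) and Agtr1a (0.256), none of them on the interferon lists. With most of each profile set by the difference between the groups, such nearness describes a like fold change.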

How the data were processed

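RNA was extracted from 3 control and 3 induced samples, and libraries were made with the NEBNext Ultra kit. Submitters' processing notes name HISAT2 2.0.5, featureCounts 1.5.0-p3, DESeq2 1.16.1 and the mouse build mm10. The authors deposited raw counts per gene, whole numbers without normalization, which were used as they stand. The authors also deposited FPKM in the same table, where each value is the count over the gene's length and over a depth of 0.980 to 1.03 times each library's total. Coordinates in the table are those of GENCODE M21 on GRCm38 for all 8 genes. The deposited fold changes, p-values and Gene Ontology tables hold the authors' own comparisons and were not used.

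Counts were tested in R 4.3.3 with edgeR 4.0.16 (filterByExpr with a minimum count of 10 and a minimum total of 15, TMM, two-sided quasi-likelihood test, Benjamini-Hochberg adjustment over all 14246 genes tested, threshold 0.05). These genes held 99.9% of reads. Standard errors come from each fold change and its F value. The test was first checked on simulated data. Limits at 0 reads take 3 counts, and they and the binomial intervals cover counting error only, since reads are not independent molecules. Every pair of libraries in a group differed by more than sampling noise (chi-square per degree of freedom 2.56 to 8.91). Motifs, overlaps and ratios were computed in Python 3.11.15, and distances between profiles used log2(CPM + 0.1).

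The 8 genes and the gene lists were chosen with earlier results of these data known. Named genes are all members, up to 4 called genes per list with the smallest p, list genes with 0 control reads and at least 10 reads in each induced library, Irf4, and the 3 nearest profiles per member that rose more than 2-fold; other genes were named after their values were seen. Some genes are not reported here. The fits were repeated with DESeq2 1.42.0, with limma 3.58.1 on log2 FPKM after adding 1 or 0.1, with median-ratio factors or only library totals for scaling, without the filter and with a tighter one (10 reads on average and 1 CPM in 3 libraries), with a replicate block, at 0.01 in place of 0.05, without each library in turn, on other length scales, and a promoter window of 250 bases. The principal-transcript length and the no-filter fits of Irf8 without each library were added after the data were seen.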

Additional observations from a re-analysis of the deposited data

How the results depend on the processing

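The calls of Irf7, Irf5, Stat2, Irf9 and Irf1 kept their direction and their side of the threshold under all alternatives. The number of members called lower was 2 with no filter, where Irf8 joined Irf1. One ISGF3 target, Isg20, was called lower with library totals alone, which gave a count of 1 (-0.16, edgeR adjusted p 0.0481). With each library left out in turn, the log2 difference of Irf3 ranged from 0.052 to 0.17, and it was called without induced replicate 2 alone; over its 15 alternatives its adjusted p ran from 0.0169 to 0.541, and the cause was not tested. The no-filter log2 fold change of Irf8 ranged from -2.31 to -1.33 in the same way, and its call was lost without control replicate 2 or induced replicate 3, with fewer samples. Same-numbered libraries share only a number: the correlations of their deviations from the group means were -0.047, -0.038 and 0.041, and with the replicate block 9063 genes were called, with 4 members higher and 1 lower as without it. The number of genes called ran from 7783 at an adjusted p of 0.01 to 9765 with no filter. Levels per kilobase of the principal transcript were above the deposited FPKM for all 8 genes in both groups, by the ratio of the lengths (1.30 for Irf5 to 2.96 for Irf2). Depth limits Irf8, Irf4 and the interferon ligands.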
